A study of Drosophila melanogaster with 6 samples.

Results

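Male Drosophila melanogaster larvae mutant for both roX1 and roX2 were compared with males mutant for roX2 alone. In the former, a run of neighbouring genes on chromosome arm 2L, from CG4839 to lft, had lower signal for most of its genes. Its members are the genes of this run, in the gene order of the Release 6 plus ISO1 MT assembly, whose probe sets lay in the upper 50% of all non-control probe sets by mean log2 signal over the 6 arrays, with the brightest probe set standing for each gene. Of 64 annotated genes in the run, 48 met this condition, among 1489 genes tested on arm 2L and 7801 tested in all. The ends of the run were chosen on the difference between mutant and control, so every difference of a member between these groups is given here as a description, and no test of the run was made.

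Total RNA came from whole male larvae of the third instar, 50 per preparation, and each preparation was measured on its own Affymetrix Drosophila Genome 2.0 array in a single colour. The mutant group had the genotype y+ w roX1- roX2-/ Y with SMC17A as the roX1 allele (3 arrays), and the control group was y+ w roX1+ roX2-/ Y (3 arrays). Both groups therefore carried the roX2 mutation, and the labels call the control wild type although it carries that mutation. The labels describe the X and Y chromosomes and say nothing of the second chromosome, so a difference between the lines in this region and an effect of roX1 cannot be told apart.

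The noncoding roX RNAs are part of the MSL complex of males, which coats the single X chromosome, acetylates histone H4 there and raises transcription. Arm 2L is an autosomal arm and is not the main target of that complex. Neighbouring genes on an arm can share local chromatin, which was not measured on these arrays. A signal from whole larvae sums all tissues, so fewer cells of a type and less RNA per cell cannot be told apart.

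Across genes, which are not independent replicates, the lowest correlation between arrays was 0.972 for mutant pairs and 0.984 for control pairs, while pairs from different groups ranged from 0.889 to 0.926. Signals below are scaled so that the median autosomal gene is 100 on each array, and log2 differences are taken as mutant minus control. Genes are said to fall or rise where limma gave a Benjamini-Hochberg adjusted p under 0.05 over all 7801 genes. SE is the moderated standard error of that fit, which draws on the spread of all tested genes and not on the gene's own arrays alone. With 3 arrays per group, the number of arrays limits the precision of every value. The tissues of the larvae were visible in the arrays. The 6 salivary glue genes summed to 12381 to 12842 in the mutant and 14975 to 15305 in the control, the 2 tested of 5 fat body genes to 4608 to 4966 and 5275 to 5467, the 2 tested of 5 muscle genes to 2008 to 2766 and 1631 to 2006, and the 6 tested of 11 male germline genes to 2547 to 2974 and 2219 to 2570. The 4 tested of 6 midgut genes summed to 6479 to 7100 in the mutant and 6650 to 7359 in the control, and the 4 hemocyte genes to 549 to 689 and 514 to 620. All these sums carry the scaling factors, which were 0.246 to 0.262 on the mutant arrays and 0.279 to 0.280 on the control arrays. How far the gaps between groups depend on that scaling was not tested. The hemocyte genes went both ways, as Hml rose (0.75) and eater (-0.67) and NimC1 (-0.35) fell. So did the male germline genes, as S-Lap2 (0.78) and mia (0.30) rose, sa (-0.50) fell and 3 did not pass. Of the glue genes 5 fell, the X-linked Sgs4 most (-0.68) and the others at -0.23 to -0.15, and Sgs1 (0.06) did not pass. The falls of Sgs3 (-0.17), Sgs5 (-0.15) and Sgs7 (-0.15) are small. They are near in size to the 0.13 by which the median of all genes moved with intensities as deposited. Of the muscle genes the X-linked up rose (0.77) and Mlc1 (0.30) did not pass. None of the 4 adult female genes reached the upper 50% by signal; the highest value of any of them was 16.7, in Yp2 on mutant array 2. The part of tissue make-up in the values of the run was not tested.

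Most members were lower in the mutant. Of the 48, 39 had a log2 difference under 0, 34 fell, 4 rose and 10 did not pass. Over all 7801 tested genes 32.4% fell and 23.1% rose, and 55% had a difference under 0. The median log2 difference of the members was -0.46, a 27.4% lower signal, with quartiles of -0.62 and -0.21. On 35 members all 3 mutant arrays lay below all 3 control arrays, as they did for 36.9% of all genes, on 5 they lay above, as for 26.4% of all genes, and on 8 the groups overlapped. Because the run was picked for being low, nothing is read from the distance of these counts to those of all genes.

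The lowering was moderate in size. A difference of -0.5 or less was seen in 22 members (17.2% of all genes) and one of -1 or less in 2 members (3.55% of all genes). The median over all tested genes was -0.06 and that over the other 1441 tested genes of arm 2L was -0.03. Among the members the differences had an SD of 0.42, against 0.53 over the rest of the arm.

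**Figure D1:**
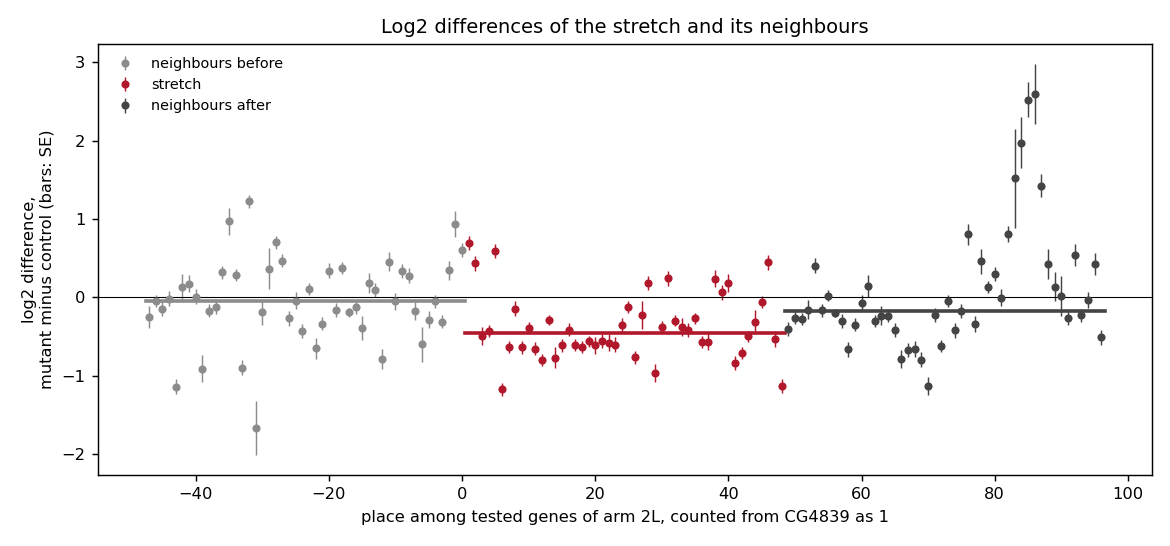
Log2 difference (mutant minus control) of the 48 members and of the 48 tested genes on each side. The horizontal axis is the place in gene order counted from CG4839 as 1, and bars are the moderated SE of limma. Horizontal lines are the medians of the 3 sets, at -0.05 before the run, -0.46 in it and -0.17 after it; 39 of 48 members lie under 0, against 27 of the neighbours before and 30 of those after.

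The 3 mutant arrays gave similar values. The median over members of the log2 signal minus the control mean was -0.49, -0.48 and -0.40 on mutant arrays 1, 2 and 3 (mean -0.46 ± 0.049, SD, n = 3). On the control arrays it was 0.01, 0.05 and -0.05 (SD 0.049, n = 3), which lie near 0 by construction. On each mutant array 39 members lay under the control mean, and 37 members did so on all 3, while 7 lay above it on all 3. The median SD of the members' log2 signal over 3 arrays was 0.08 in the mutant and 0.08 in the control, against 0.12 and 0.11 over all tested genes. The members were also brighter, at a median control signal of 173 against 97.4 over all tested genes. A link between level and spread was not tested.

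**Figure D2:**
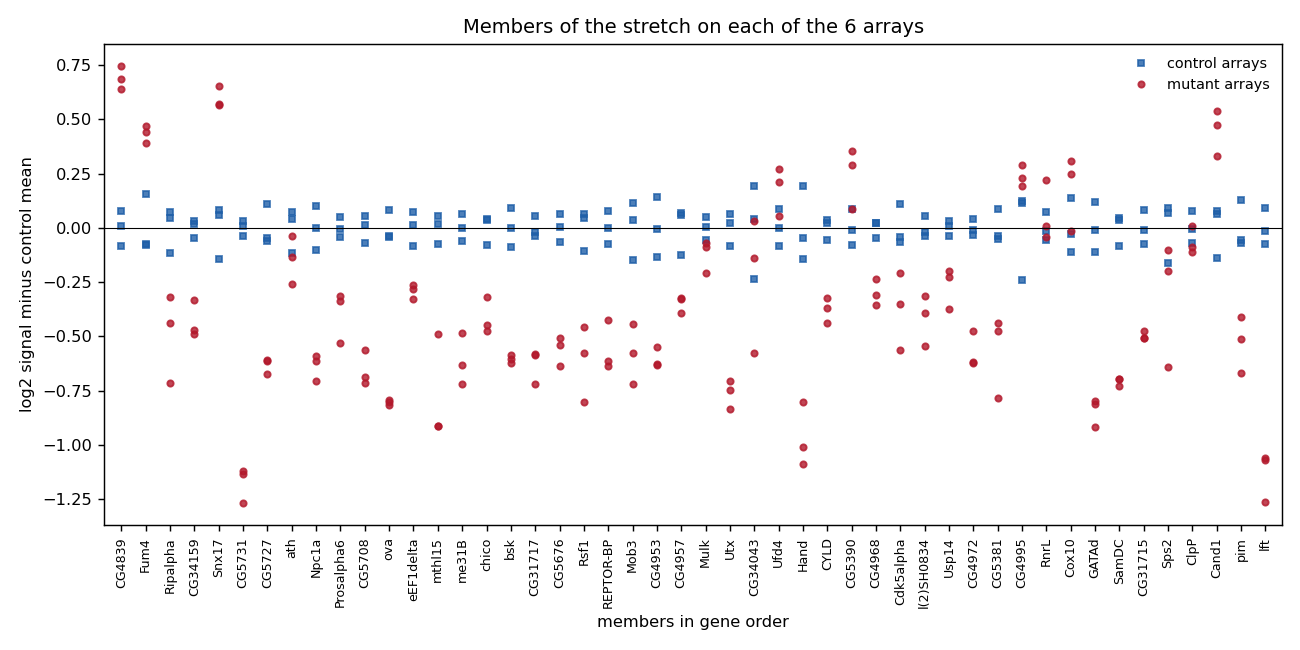
Log2 signal minus the control mean for each of the 48 members, in gene order, on the 3 mutant arrays (circles) and the 3 control arrays (squares). For 35 members all circles lie under all squares, and the 5 with all circles above are CG4839, Fum4, Snx17, CG4995 and Cand1.

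The longest unbroken series of falls lay in the first part of the run. From Npc1a to CG4957, 16 tested genes in a row fell, with a median of -0.60 and a range from -0.81 to -0.29. A second unbroken series of 6 falls ran from CG4968 to CG5381, at a median of -0.40, and another of 3 from GATAd to CG31715, at -0.71. Divided into 4 blocks of 12 members in gene order, the block from CG4839 to ova had a median of -0.46 with 8 falls and 3 rises, and the block from eEF1delta to CG4957 had -0.59 with 12 falls. The block from Mulk to CG4972 had -0.34 with 8 falls, and that from CG5381 to lft had -0.41 with 6 falls and 1 rise. Among all 7801 tested genes 32.4% fell and 23.1% rose. As the run was picked for being low, nothing is read from the counts per series or block.

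The ends of the run differed from each other. CG4839, the first member, had signals of 53.2, 55.0 and 57.4 in the mutant against 36.0, 32.2 and 34.4 in the control. It was thus higher on every mutant array, with a log2 difference of 0.69 (SE 0.09, n = 3 arrays per group), the highest of the members at this setting. With an offset of 50 added to the signal it stood at 0.32, under Snx17 at 0.44. lft, the last member, which encodes the Lowfat protein that binds the intracellular parts of the cadherins Fat and Dachsous, had signals of 77.8, 67.7 and 77.4 in the mutant against 173, 161 and 155 in the control. Its mutant arrays all lay under its control arrays, and its log2 difference of -1.13 (SE 0.09) was the second lowest. The name of a lowered run therefore holds for the median and for most genes, and not for the first end, where CG4839 and Fum4 both rose.

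Just outside the run the values were as follows. The nearest tested gene before it, Pen, an importin alpha gene, stood at 0.61, with 829 to 1054 in the mutant and 594 to 631 in the control. The 2 tested genes before Pen, obst-B and CG13131, stood at 0.94 and 0.34. The nearest tested gene after it, CG5056, stood at -0.40, with 170 to 193 in the mutant and 231 to 262 in the control. CG5096 and mRpS7, a mitochondrial ribosomal protein gene, followed at -0.26 and -0.27. Within the run, the first members went both ways, as CG4839 (0.69), Fum4 (0.43) and Snx17 (0.60) rose and Ripalpha (-0.49) fell. The ends were chosen on these same differences, so no start or end of a drop is read from them.

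The neighbours were compared as sets of 48 tested genes on each side. Before the run, 12 fell and 14 rose, with a median of -0.05, and no more than 2 falls stood in a row. After the run, 20 fell and 11 rose, with a median of -0.17, and 7 genes in a row fell from Bug22 to LManI, at a median of -0.67. The median of the members minus that of both neighbour sets together was -0.36. Per array, the set before the run stood at -0.04, -0.11 and -0.05 in the mutant and the set after it at -0.18, -0.16 and -0.15.

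**Figure D3:**
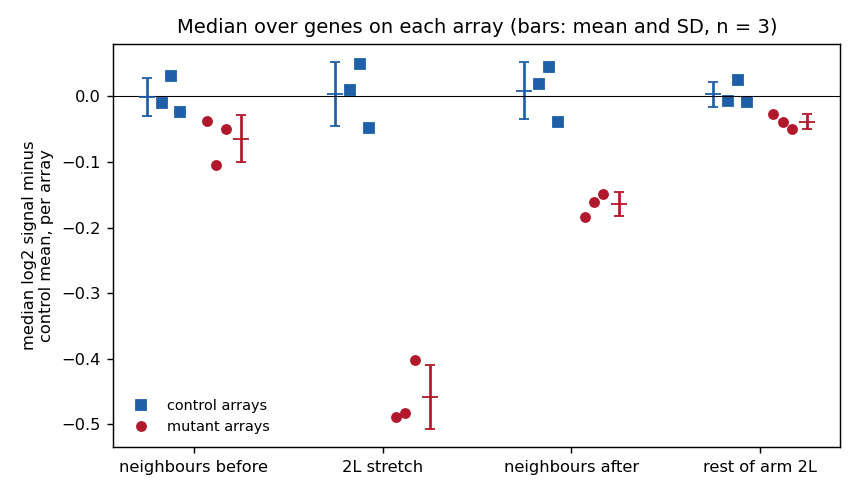
Median over genes of the log2 signal minus the control mean on each array, for the neighbours before the run, the run itself, the neighbours after it and the rest of arm 2L; points are arrays and bars are the mean and SD of 3 arrays. The 3 mutant arrays lie between -0.49 and -0.40 in the run, between -0.18 and -0.15 after it and between -0.11 and -0.04 before it.

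Along the whole arm, the run sits where a median over 48 consecutive tested genes is lowest. Of 1442 such windows on arm 2L, 3 had the median of -0.46, namely those that begin at CG4839, Fum4 and Ripalpha; moving the window past CG4839 and Fum4, to end at CG5096, left the median at -0.46 and gave 36 falls in place of 34. A second low region lay before it on the same arm, where the window from MED20 to CG13384 had a median of -0.38 and 33 falls. The lowest windows of the same size stood at -0.31 on arm 2R, -0.30 on 3L, -0.45 on 3R and -0.66 on X, where the median window was -0.28. These are descriptions of where the run was found, and the windows overlap.

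**Figure D4:**
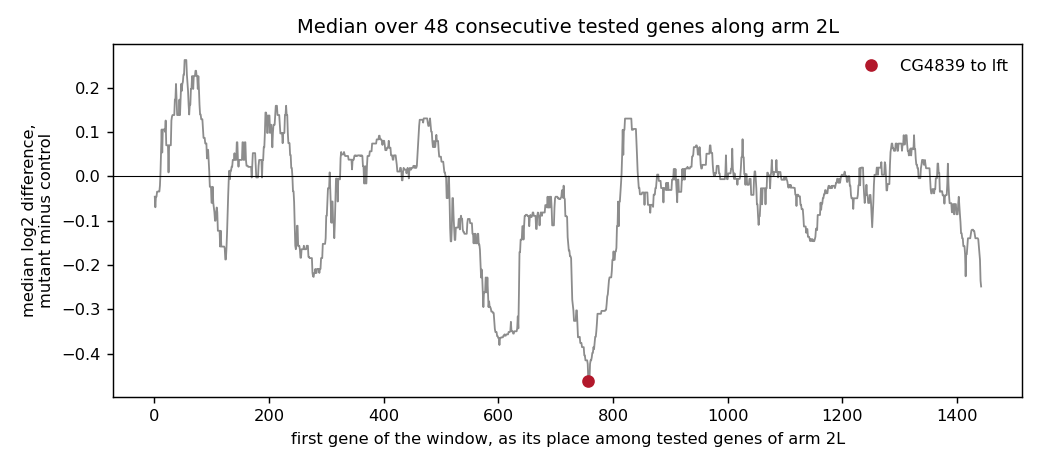
Median log2 difference (mutant minus control) over 48 consecutive tested genes along arm 2L, plotted at the first gene of each window. The window from CG4839 to lft is marked at -0.46, the lowest value on the arm, where the windows reach up to 0.26.

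The 5 members with the lowest differences were CG5731, lft, Hand, GATAd and ova. CG5731 had signals of 33.7, 36.9 and 37.3 in the mutant against 82.9, 81.4 and 78.9 in the control. The 2 groups were far apart for this gene, with a log2 difference of -1.17 (SE 0.08), or 0.443 times the control signal. Hand, the bHLH transcription factor gene of heart and hematopoietic cells, had 57.2, 49.6 and 47.0 in the mutant against 90.3, 114 and 96.8 in the control. Its difference was -0.97 (SE 0.12), and mutant and control arrays did not overlap. GATAd, a GATA factor gene, had 64.0, 58.9 and 63.3 against 111, 121 and 103 in the control, a difference of -0.84 (SE 0.09). ova, a gene needed in the ovary for transposon silencing and heterochromatin, had 98.2, 99.2 and 99.9 in the mutant against 168, 183 and 169 in the control. Its mutant arrays were nearly equal, and its difference was -0.81 (SE 0.08). Sizes and order of these 5 depended on the offset: with 50 added to the signal, lft was lowest at -0.78, CG5731 stood at -0.61, SamDC and ova both at -0.58, Hand at -0.57 and GATAd at -0.53.

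The 3 members with the highest differences were CG4839, described above, Snx17 and Cand1. Snx17, a sorting nexin gene of endosomal recycling, had 172, 172 and 182 in the mutant against 123, 105 and 121 in the control, a difference of 0.60 (SE 0.09). Cand1, which encodes an exchange factor of cullin ubiquitin ligases, had 186, 178 and 161 in the mutant against 135, 116 and 133 in the control, a difference of 0.45 (SE 0.10). In both genes every mutant array lay above every control array. Snx17 stands between CG34159 (-0.43) and CG5731 (-1.17), and Cand1 between ClpP (-0.06) and pim (-0.53), so Snx17 rose between genes that fell, while of the neighbours of Cand1 only pim fell.

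By known roles, the members were mixed. Each role below was assigned by hand with the values known, within a run of which 70.8% fell, so the counts per role are descriptions and say nothing particular to a role. Of 8 signalling genes, 6 fell and 1 rose, at a median of -0.50. Those that fell, beside lft, were bsk (-0.60), the Jun kinase, chico (-0.41), the insulin receptor substrate, Mob3 (-0.58), of the Mob family of kinase cofactors, Cdk5alpha (-0.37), an activator of the kinase Cdk5, and mthl15 (-0.77), a methuselah-like receptor gene. Mulk, a lipid kinase gene, stood at -0.12 without passing.

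bsk had signals of 248, 245 and 251 in the mutant against 354, 401 and 376 in the control. The mutant arrays of bsk all lay below its control arrays. Its 2 further probe sets stood at -0.86 and -0.39 beside -0.60 for the brightest, so all 3 were under 0. Only bsk, mthl15 and SamDC had more than 1 probe set, and all 4 further probe sets had differences under 0, at -0.91 in SamDC and -1.53 in mthl15. The size in mthl15 is uncertain, since the mutant mean of that probe set, 17.8, lay under the signal threshold described below. Without mutant array 2, mutant array 3, control array 2 or control array 3, Cdk5alpha did not pass (log2 -0.28, -0.38, -0.32 and -0.40). It lost its call in 7 of 14 alternatives in all.

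Of 7 genes of protein turnover, 4 fell, 1 rose and 2 did not pass, and their differences were small, at a median of -0.27. The falls were in Prosalpha6 (-0.39), an alpha subunit of the proteasome core, Usp14 (-0.27), a deubiquitinase of the proteasome, CYLD (-0.38), another deubiquitinase, and CG4968 (-0.30), which the gene table lists also as OTUB1. Ufd4, a ubiquitin ligase gene, stood at 0.18 and ClpP, the mitochondrial protease, at -0.06. Prosalpha6 and Usp14 were among the brightest members, with control means of 828 and 767.

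The 5 genes placed under transcription and chromatin fell, at a median of -0.81, beside 34 of the 48 members and 32.4% of all tested genes. Beside ova, Hand and GATAd these were Utx (-0.76), the demethylase of histone H3 lysine 27, and REPTOR-BP (-0.56), the bZIP partner of the TORC1-regulated factor REPTOR. The 3 genes of RNA and translation fell as well. They were me31B (-0.61), the DDX6-type helicase of RNA granules, Rsf1 (-0.61), a splicing regulator, and eEF1delta (-0.29), a subunit of the elongation factor exchange complex. Of 3 genes of DNA and chromosomes, Ripalpha (-0.49), named for its binding to the single-strand binding protein RPA, and pim (-0.53), the fly securin, fell, and RnrL, the large subunit of ribonucleotide reductase, stood at 0.06.

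Of 8 genes of metabolism, mitochondria and membrane traffic, 4 fell, 2 rose and 2 did not pass. SamDC (-0.71), S-adenosylmethionine decarboxylase of polyamine synthesis, and Npc1a (-0.64), a sterol transporter, fell most. CG5676 (-0.56), listed also as FUNDC1, and CG4953 (-0.60), listed also as TRAPPC13, fell too. Fum4, a fumarase gene, rose, with 53.9, 55.0 and 52.0 in the mutant against 37.7, 44.3 and 37.5 in the control, at 0.43 (SE 0.10). Cox10, needed for the heme of cytochrome oxidase, stood at 0.18 and Sps2, a selenophosphate synthetase gene, at -0.31.

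For 14 members no role is given here, and 10 of them fell. Beside CG5731 these were CG5708 (-0.66), CG5727 (-0.63), CG31717 (-0.63), CG4972 (-0.57), CG5381 (-0.57), CG31715 (-0.50), CG34159 (-0.43), l(2)SH0834 (-0.42) and CG4957 (-0.35). The other 4 did not pass: CG5390 stood at 0.24, CG4995 at 0.24, ath at -0.14 and CG34043 at -0.23. Without mutant array 1, CG5390 passed at 0.32, as did Cox10 at 0.28. CG5390 changed its call in 5 of 15 alternatives in all, and Cox10 in 2. CG4995 did not pass although all of its mutant arrays lay above all of its control arrays.

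The members were brighter than the tested genes at large. The median control signal was 173 in the run, 97.4 over all tested genes, 95.9 in the set before it and 123 in the set after it. Among the 24 brighter members 20 fell and none rose (limma, adjusted p under 0.05), at a median of -0.54. Among the 24 dimmer ones 14 fell and 4 rose, at -0.38. Over all tested genes, bright and dim together, 32.4% fell and 23.1% rose. Across the 48 members the control level and the difference had a Pearson's r of -0.20 and a Spearman's rho of -0.14, across genes that share arrays. Falls were seen among both bright and dim members of a run that was picked for being low, so nothing is read from these counts.

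**Figure D5:**
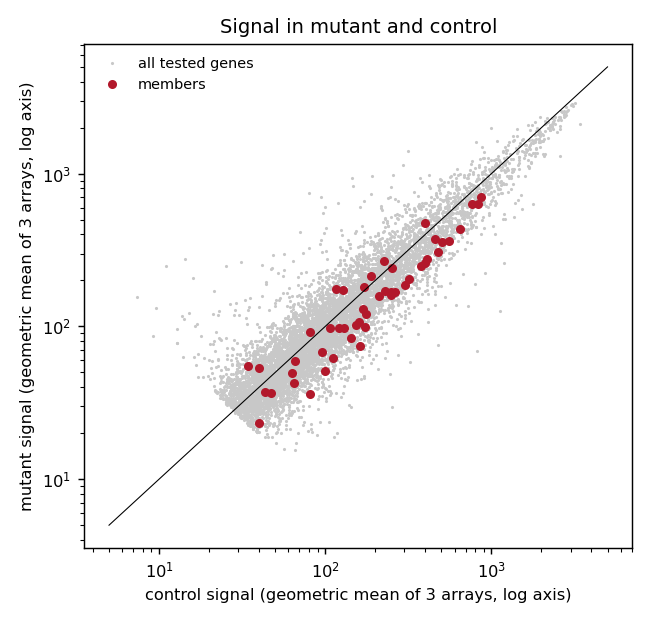
Geometric mean signal of 3 mutant arrays against that of 3 control arrays, both on log axes, for all 7801 tested genes (grey) and the 48 members (red), with the line of equal signal. Of the members, 39 lie under the line, and their control means run from 34.2 to 865.

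At the signal threshold, which lay between 25.7 and 29.3 on the scaled arrays, mthl15 was the dimmest member, with 21.2, 28.4 and 21.2 in the mutant against 41.4, 37.9 and 40.4 in the control. Its mutant signals lie under or near that threshold, so the size of its difference is uncertain. Just under the threshold was Ror, a receptor tyrosine kinase gene, with 22.9, 19.3 and 17.8 in the mutant against 32.2, 41.9 and 34.4 in the control. Of the 16 annotated genes that are no members, 10 had a probe set in the lower 50% by signal. They were CG13137, Sur, Bcs1, Ror, trk, CG13138, Schip1, Frmd5, CG34367 and CtsL4. Of these 10, 7 had a difference under 0, beside 55% of all tested genes. No signal of these genes passed 41.9 on any array, so nothing is read from this count. The other 6 annotated genes were not analysed here.

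Partners of the run's signalling genes elsewhere in the genome were examined through 2 lists, which do not hold the members themselves. lft acts with the Fat and Dachsous cadherins, which feed into the Hippo growth pathway. Of 20 listed genes of that pathway 14 were tested, of which 5 fell, 1 rose and 8 did not pass, at a median of -0.09. Dlish, an adaptor downstream of Fat, had 40.5, 40.0 and 41.1 in the mutant against 76.6, 69.9 and 67.4 in the control. It fell by 0.81 on the log2 scale (SE 0.09, limma adjusted p = 0.000247), and its groups did not overlap. mats, the Mob cofactor of the kinase Warts, fell by 0.75 (adjusted p = 0.000325, limma), and Zyx, the chromosome 4 gene of zyxin, by 0.47 (adjusted p = 0.00226). yki, the transcriptional coactivator that the pathway restrains, rose by 0.45 (adjusted p = 0.00195, limma), with 171 to 182 in the mutant and 123 to 134 in the control.

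bsk is the kinase at the end of the JNK cascade. Of 17 listed genes of that cascade, 16 were tested, of which 6 fell, 1 rose and 9 did not pass, at a median of -0.22. grnd, a receptor of the TNF ligand Eiger, fell by 0.92 (SE 0.09, limma adjusted p = 0.000188), with 92.1 to 101 in the mutant and 165 to 190 in the control. Mkk4, a kinase that activates Bsk, fell by 0.47 (adjusted p = 0.0013, limma) and Traf6, an X-linked adaptor gene, by 0.51 (adjusted p = 0.00408). Tab2, an adaptor of the kinase Tak1, rose by 0.37 (adjusted p = 0.012, limma). The share of falls in both lists stood near the 32.4% of all tested genes, and 3 of these 11 falls were in X-linked genes. With the intensities left as deposited, 3 genes of the JNK list fell in place of 6.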

How the data were processed

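The values are intensities per probe set on a linear scale, deposited by the authors as 1 column per array. GCOS 1.2 is named in the submitters' processing notes. The authors called genes present or absent from perfect match minus mismatch and scaled each array to an autosomal median of 100, per the labels' design text. How probes were summarised is not stated there. The deposited values had medians of 100.3 to 107 over all probe sets, and whether they carry the autosomal scale was not tested. Preparations are called independent in that text.

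Of 18952 probe sets, 183 were controls. Of the others, 13647 had 1 gene, 402 several and 4720 none listed in the platform annotation (which can be old), and 13544 matched the RefSeq gene table by gene ID, 6 by symbol, 85 by an older name and 12 kept their name. The RefSeq listing gave arms and gene order only. The upper 50% by mean log2 signal (9384 probe sets) was kept, with values at or below 0 (113 to 169 per array) replaced by the lowest positive value of the array. The brightest probe set stood for its gene, and each array was scaled so that kept genes of chromosomes 2, 3 and 4 had a median of 100 (factors 0.246 to 0.280). Genes were tested on log2 signal with limma 3.58.1 (eBayes with trend; R 4.3.3, data.table, version 1.17.8) with group as the only term; the fit was tested on simulated data. Neighbours are the 48 tested genes on each side.

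The members, the lists and the tests were chosen with earlier results of these data known. The named genes were all members by their difference, with signals for the first, the last, the 5 lowest and the 3 highest; the 3 tested genes nearest on each side; and at most 4 genes per pathway list, by smallest p. Signals of bsk, Fum4, mthl15 and Ror were added after their values were seen. The lists were Fat, Dachsous and Hippo signalling, JNK signalling, and markers of fat body, muscle, glue, male germline, midgut, hemocytes and adult females. Lists anchored on Pen and da were not used, as both lie outside the run. Alternatives covered scaling, an offset, the signal filter, the probe set, the prior, a replicate block, each array left out, and the number of neighbours.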

Additional observations from a re-analysis of the deposited data

How the results depend on the processing

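The median of the run stayed under 0 in all alternatives run. It was -0.33 with intensities as deposited and -0.32 with an offset of 50, and between -0.51 and -0.46 on leaving out 1 array. The falls among members numbered 29 with intensities as deposited (8 rose, against 34 and 4), 29 of 39 in the brightest 33.3% of probe sets, 38 of 58 with no signal filter, and 33 to 34 on leaving out 1 array. As deposited, the median of all genes moved by 0.13, the calls over all genes turned from 2525 falls and 1805 rises (41.7% rises) to 1709 and 2406 (58.5%), and the run minus all genes was -0.40 either way. The neighbours before the run stood at 0.078 as deposited, -0.0021 with all kept genes scaled to 100, -0.0047 with quantile normalization, -0.11 with no filter and 0.11 with 10 neighbours, and at -0.06 to -0.03 on leaving out 1 array. Those after it stood at -0.043, -0.12, -0.12, -0.25 and -0.23 in the same order, at -0.10 with the offset, -0.024 in the brightest 33.3% and at -0.19 to -0.15 on leaving out 1 array. The run minus both sets was -0.25 with the offset, -0.25 with no filter, -0.47 in the brightest 33.3%, -0.29 with 10 neighbours and -0.41 to -0.35 on leaving out 1 array. The cause of these moves was not tested. On leaving out 1 array, falls over all genes ran from 2138 to 2533 and rises from 1389 to 1815.

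Of the 34 members that fell, 29 did so in all alternatives that tested them, and the 4 rises did so too. As deposited, eEF1delta, CG4957, CG4968, Cdk5alpha and Usp14 did not pass, and Ufd4, CG5390, CG4995 and Cox10 passed as rises. No member that passed changed direction. Cdk5alpha also did not pass with quantile normalization (limma adjusted p = 0.0549) or the replicate block (0.0641). Same-numbered arrays did not deviate together (correlations -0.34, -0.06 and -0.38), while pairs with different numbers ranged from -0.36 to 0.51. With 3 arrays per group, these values cannot show whether any arrays shared a batch. With the replicate block 33 members fell, with 2166 falls and 1529 rises over all genes. The alternative that leaves out the first and last member, and the counts for the pathway lists under the alternatives, were added in part after seeing the data.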
